A study of Mus musculus with 3 samples.

Results

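Amdhd2 and 9 other enzymes of amino sugar metabolism were described in Runx1 ChIP-seq of mouse spinal cord, which maps chromatin bound to an antibody against the transcription factor Runx1. The 10 genes were Amdhd2, Gfpt1, Gfpt2, Gnpnat1, Pgm3, Uap1, Nagk, Ogt, Gne and Renbp, out of 21887 coding genes of the RefSeq table. A region belonged to one of them where the authors' annotation named that gene, which gave 1 region of 451 in replicate 1, 1 of 1641 in replicate 2 and 9 of 13194 in replicate 3. Amdhd2 was chosen because its region was the strongest found in every replicate, and the others because of their place in the pathway. The height of the Amdhd2 region is therefore a description and is not tested. All 3 replicates form 1 group of male C57BL/6J mice aged 8 to 10 weeks, with no other genotype or treatment given in the labels and no second group for comparison. Each replicate pooled chromatin of 10 spinal cords, about 10 µg, with 9 µg of antibody, and whether any animal gave chromatin to more than one replicate is not stated. Cells were freed by homogenising the cords and clearing debris, with no sorting by type in the labels, although the series title speaks of microglia. Replicate 3 was placed in the group by its title, since its tissue label names the antibody instead. The files hold no expression values, so the cell types behind a region could not be checked against marker genes.

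The hexosamine pathway turns fructose phosphate and glutamine into UDP-N-acetylglucosamine, the donor sugar for N-glycans, for hyaluronan and for O-GlcNAc marks on nuclear and cytosolic proteins. Gfpt1 and Gfpt2 catalyse its entry step, Gnpnat1, Pgm3 and Uap1 carry the sugar on to the donor, and Nagk returns N-acetylglucosamine freed in lysosomes. The deacetylase encoded by Amdhd2 runs against Gnpnat1 and removes the acetyl group again. Gne takes UDP-N-acetylglucosamine into sialic acid, the terminal sugar that microglial Siglec receptors read on neighbouring cells.

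The lists differed in length, which bears on every count below. The median fold over background was 4.86, 4.01 and 3.81 in replicates 1, 2 and 3, and the share of regions that the authors placed at promoters (at most 1 kb from a transcript start) was 82.7%, 71.4% and 62.6%. A gene had a region in 1.51% of coding genes in replicate 1, in 5.17% in replicate 2 and in 31.5% in replicate 3. Fold here is the authors' own value at the strongest summit, and it ranks regions within a list. It was read as the fragment pileup plus 1 over the local background plus 1. It is therefore lower than the plain ratio of fragments to background. The depth of each library is unknown.

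The Amdhd2 region (ENSMUSG00000036820) sat on the gene's start in all 3 replicates, and its summits lay within 10 bp of each other. It spanned chr17:24163433-24164023 in replicate 1, chr17:24163346-24164027 in replicate 2 and chr17:24163215-24164023 in replicate 3 (GRCm38), all placed at the promoter. The region of replicate 1 lay wholly inside the other 2, so 591 bp were common to all. The summits were at 24163771, 24163766 and 24163776, which is 38, 33 and 43 bp before the RefSeq start of Amdhd2 at 24163733. The gene is read from the reverse strand. Only 131 bp separate it from the end of Atp6v0c, the membrane proteolipid subunit of the lysosomal proton pump, and each region also covered the last 159 to 163 bp of that gene.

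All 3 summits fell in those 131 bp between the genes, which are shown because they hold E-boxes, found in no other window of the 10 enzymes. The sequence is from RefSeq (GRCm38.p6, chr17:24163734-24163864), 5′ to 3′ on the strand of Amdhd2. Capitals mark the RUNX core TGTGGT, the core of the RUNX binding motif, and the E-box CACGTG, a palindrome bound by basic helix-loop-helix factors.

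Amdhd2: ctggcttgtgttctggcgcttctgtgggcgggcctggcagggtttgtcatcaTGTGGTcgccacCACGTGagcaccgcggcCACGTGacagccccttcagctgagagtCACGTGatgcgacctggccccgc

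The window held 3 E-boxes and 1 RUNX core. The E-boxes ended 18, 45 and 62 bp before the start and the RUNX core 74 bp before it. The middle E-box (24163778 to 24163783) was the one nearest to the summits of replicates 1 and 3, at 7 and 2 bp. In replicate 2 the summit lay 12 bp from it and 10 bp from the E-box next to the gene. The RUNX core (24163807 to 24163812) was 36, 41 and 31 bp from the summits of replicates 1, 2 and 3. A match of letters is a description and does not show which protein was bound. Over 32851 RefSeq promoter windows of 300 bases (250 before and 50 after a start), the E-box was found in 7.15% and the RUNX core, on either strand, in 16.8%. Only 29 windows (0.0883%) had 3 or more E-boxes, and 6 of those also held a RUNX core. The extended palindrome GTCACGTGAC, found in 0.326% of windows, was not in the Amdhd2 window.

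**Figure D1:**
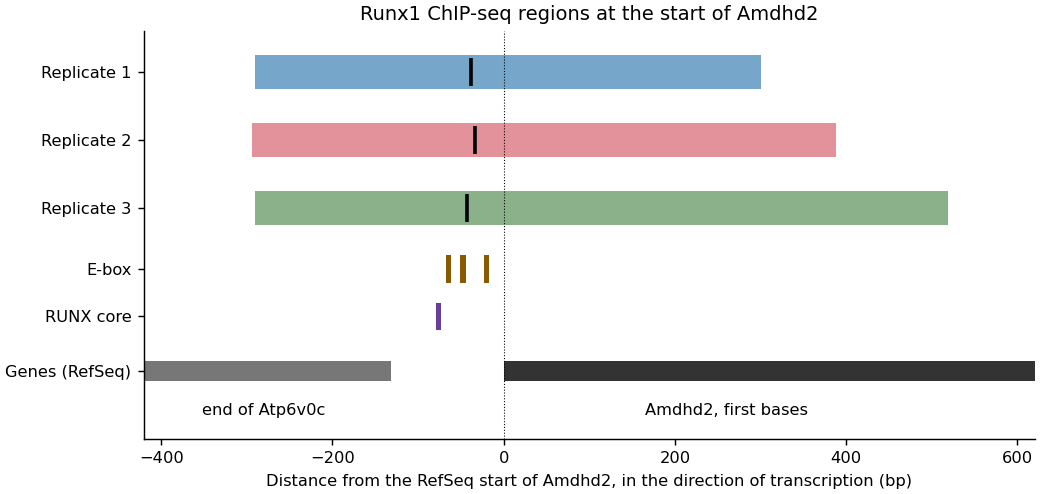
Map of the Amdhd2 start: bars are the regions of the 3 replicates, black ticks their summits, and coloured ticks the E-box and RUNX core matches, against distance in bp from the RefSeq start in the direction of transcription. The 3 summits lie 33 to 43 bp before the start, between E-boxes and inside the gap between Atp6v0c and Amdhd2.

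No E-box was found in the promoter windows of the other enzymes. Of the 10 genes, all but Gnpnat1 had a promoter window in the RefSeq table. Amdhd2 was the only one of these 9 with an E-box. Uap1, which had no region, was the only other of the 9 with a RUNX core. The strongest summits of Gfpt1, Pgm3 and Gne lay outside their windows, so the search did not reach them. GC boxes (GGGCGG), common in CpG-rich promoters, were in the windows of 8 of the 9. By window that was 9 of 11, against 35.7% of all windows and 59.6% of those of genes with a region in replicate 3. The E-box was in 1 of the 11 windows, against 7.15% of all, and the RUNX core in 2, against 16.8%. Nothing is read from so few windows. For contrast, these are the 100 bases before Ogt (chrX:101639911-101640010) and before Gfpt1 (chr6:87042746-87042845), both on the forward strand, the enzymes with the next highest folds; both lack the letters that were capitalised above. These stretches are not matched to the Amdhd2 one by summit: the strongest summit of replicate 3 lay 201 bp outside the Ogt stretch and 193 bp outside the Gfpt1 stretch, and inside that of Amdhd2.

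Ogt: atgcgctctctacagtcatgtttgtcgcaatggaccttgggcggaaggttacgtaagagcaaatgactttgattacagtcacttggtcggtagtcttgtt
Gfpt1: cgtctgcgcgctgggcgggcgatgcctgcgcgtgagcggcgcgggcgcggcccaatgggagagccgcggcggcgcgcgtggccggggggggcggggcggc

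Amdhd2 had the highest fold of replicates 1 and 2 and the next to highest of replicate 3. Its fold was 36.8 in replicate 1, 26.7 in replicate 2 and 20.9 in replicate 3, with a mean of 28.1 ± 8.04 (SD, n = 3). These were 7.57, 6.67 and 5.48 times the median of each list. In replicate 1 the next fold was 22.2 and in replicate 2 it was 12.3, both at B930059L03Rik, and in replicate 3 Lamp1, a lysosomal membrane glycoprotein, stood above Amdhd2 at 24.5. By the lowest of its 3 percentiles of fold, Amdhd2 stood at 99.99, and the next genes were B930059L03Rik at 99.78 and Lamp1 at 99.33. The authors' −log10 q at the summit was 147, 106 and 281.

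The order of the replicates by fold was not the order by fragments. The deposited fold and p gave summit pileups of 118, 97 and 306 fragments in replicates 1, 2 and 3, the largest pileup of each list. They gave local backgrounds of 2.23, 2.67 and 13.7 fragments. In replicates 1 and 2 the background was the lowest level found anywhere in the list. In replicate 3 it was 4.38 times the lowest level, higher than at most regions (percentile 99.6 of backgrounds). The library behind this background and the way it was estimated are not named by the submitters. With the lowest level of each list in place of the local one, a setting chosen after the data were seen, the folds were 36.8, 26.7 and 74.4, and replicate 3 moved from the lowest to the highest of the 3. From counting error alone, with the background taken as known, the 95% exact Poisson intervals of the fold were 30.5 to 44.0, 21.7 to 32.5 and 18.6 to 23.4. Replicates 1 and 3 did not overlap, whereas replicate 2 overlapped both.

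**Figure D2:**
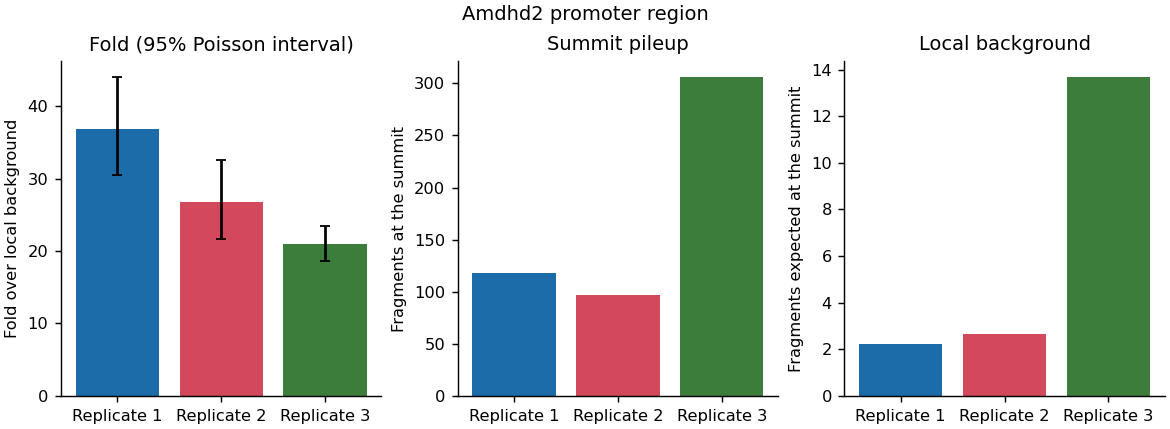
Fold over local background with its 95% Poisson interval, summit pileup in fragments and local background in fragments for the Amdhd2 region, 1 bar per replicate. Fold falls from 36.8 to 20.9 across the bars, while replicate 3 has the most fragments (306) and the highest background (13.7).

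The start of Atp6v0c, at the far end of that gene, had a region of its own in replicates 2 and 3. Its folds there were 3.40 (chr17:24169155-24169576, 17 fragments) and 9.05 (chr17:24169100-24169971, 71 fragments), at percentiles 16.9 and 98.2 of their lists. Replicate 1 had no region there. In replicates 2 and 3 the Amdhd2 region was higher, but it was chosen for its height, so nothing is read from this.

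The genes whose folds were most like those of Amdhd2 included several with more than 1 E-box. Likeness was the Euclidean distance in log2 fold over the 3 replicates, among 183 coding genes with a region in all of them. These are the folds for which Amdhd2 was chosen, so the nearest genes are others of high fold. Among the 5 nearest were Lamp1 (distance 1.75), Zmym6 (1.83), Mfsd1 (2.21) and Ube2q1 (2.79). Lamp1 had folds of 15.7, 11.4 and 24.5, the zinc-finger gene Zmym6 20.3, 10.8 and 10.7, and Mfsd1, a lysosomal transporter gene, 12.1, 9.93 and 14.5. Their RefSeq windows held 4 E-boxes at Lamp1, 4 at Zmym6, 5 at Mfsd1 and 2 at Ube2q1. The 100 bases before 3 of these genes are shown for comparison with Amdhd2, all on the forward strand, with the same capitals: Lamp1 at chr8:13159061-13159160, Zmym6 at chr4:127077283-127077382 and Mfsd1 at chr3:67582668-67582767.

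Lamp1: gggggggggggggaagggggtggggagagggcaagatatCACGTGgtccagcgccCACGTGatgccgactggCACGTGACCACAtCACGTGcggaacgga
Zmym6: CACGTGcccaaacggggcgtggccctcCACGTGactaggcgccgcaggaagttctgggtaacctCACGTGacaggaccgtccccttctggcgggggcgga
Mfsd1: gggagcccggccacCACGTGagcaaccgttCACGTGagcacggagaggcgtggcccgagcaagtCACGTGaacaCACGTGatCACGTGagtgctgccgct

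The summits of these genes lay within 25 bp of an E-box, except that of Ube2q1 in replicate 3. In replicates 1, 2 and 3 the distances to the nearest one were 23, 2 and 3 bp at Lamp1, 12, 25 and 6 bp at Zmym6, and 7, 5 and 9 bp at Mfsd1. At Ube2q1 they were 3, 0 and 100 bp. In the Lamp1 sequence the third E-box is followed directly by the RUNX core on the reverse strand (ACCACA). Zmym6 and Mfsd1 had no RUNX core in their windows.

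Regions were more frequent at coding genes with more E-boxes, a description made after the Amdhd2 sequence was seen. With no E-box in any promoter window, 1.00%, 4.74% and 30.2% of 15933 genes had a region in replicates 1, 2 and 3. With 1 E-box the shares were 3.91%, 9.30% and 47.5% of 1408 genes, and with 2 they were 26.9%, 28.5% and 63.8% of 130 genes. With 3 or more, the class of Amdhd2, they were 57.1%, 47.6% and 71.4% of 21 genes. Windows with more E-boxes were also richer in G and C. The median GC content was 52.3% with no E-box, 58% with 1, 62.3% with 2 and 62% with 3 or more, and it was 62% at Amdhd2. The part of base composition in these shares was not tested.

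**Figure D3:**
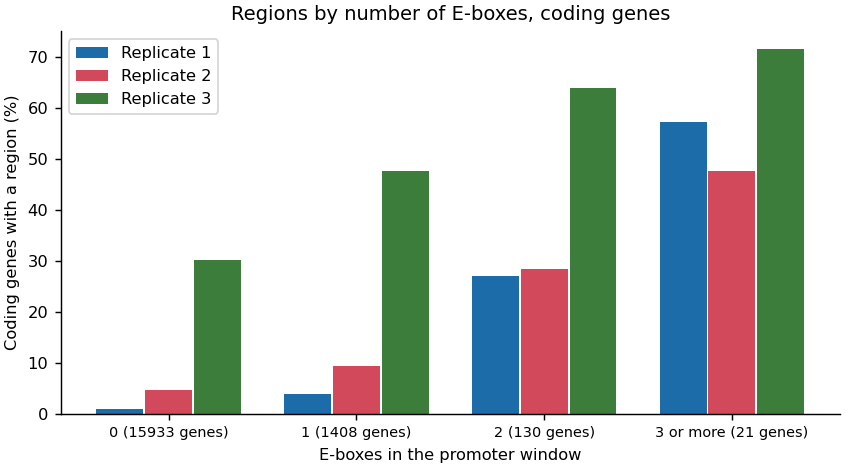
Percent of coding genes with a region against the number of E-boxes in the promoter window (the window with most, where a gene has several), 1 bar per replicate. In replicate 1 the share goes from 1.00% of genes with none to 57.1% of the 21 genes with 3 or more.

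Beyond Amdhd2, 6 enzymes had a region, each in replicate 3 alone and each at a promoter, with folds below those of Amdhd2. In replicates 1 and 2, Amdhd2 was the only one of the 10 genes with a region, against 1.51% and 5.17% of coding genes. In replicate 3, 7 of 10 had one, against 31.5%. In at least 2 replicates the count was 1, against 5.43%, and in all 3 it was 1, against 0.836%. The genes were chosen with these lists known, so nothing is read from these counts. By the strongest region of each gene, the median fold of the 7 in replicate 3 was 4.12, against 4.04 over the 6887 coding genes with a region. By single regions it was 3.72 over their 9, against 3.81 over the 10372 of coding genes, so the direction turned with the way of counting. Both medians include Amdhd2, which was chosen for its fold. The strongest folds of the other genes were 6.55 (Ogt), 5.26 (Gfpt1), 4.12 (Gnpnat1), 3.67 (Nagk), 3.06 (Gne) and 2.42 (Pgm3). With a fold of 5 or more, 3 of the 10 remained (Amdhd2, Ogt and Gfpt1), against 8.49% of coding genes. With a q of 1e-05 or less, 5 remained (Gnpnat1 and Nagk in addition), against 22.0%. Assigned by RefSeq gene body or 1 kb around it, 7 had a region, against 36.5%, and by 1 kb around a RefSeq start 6 of the 9 with a window, against 31.7%.

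At the entry step, Gfpt1 and Gfpt2 differed in what was called. The Gfpt1 region of replicate 3 (chr6:87042154-87042886) had 2 summits, the stronger 293 bp before the start, with a fold of 5.26 from 34 fragments (percentile 82.8). No region was assigned to Gfpt2 (chr11:49794155-49838620) in any replicate, and the nearest in replicate 3 lay 92478 bp away. That no region was listed for a gene does not show that Runx1 was absent from it.

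Along the chain to UDP-N-acetylglucosamine the folds were lower. Gnpnat1, the acetyltransferase that Amdhd2 opposes, had a region in replicate 3 (chr14:45388462-45389029) with a fold of 4.12 from 38 fragments. Pgm3, the mutase of the next step, had the weakest region of the set, chr9:86571433-86571789, with a fold of 2.42 from 22 fragments. Its −log10 q of 2.02 was just above the lowest deposited in replicate 3, 2.00, and its percentile of fold was 0.527. Another region lay just outside the gene and was assigned to Rwdd2a (chr9:86572056-86572309, fold 2.75). No region was assigned to Uap1 (chr1:170141223-170174964), which makes the finished donor, and the nearest in replicate 3 was 171565 bp away.

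In salvage and use of the sugar, Ogt had the highest fold after Amdhd2. Ogt, the single enzyme that places O-GlcNAc on nuclear and cytosolic proteins, had 2 regions in replicate 3. One covered its start (chrX:101639880-101640427) with a fold of 6.55 from 28 fragments (percentile 93.1), and the other lay inside the gene (chrX:101640758-101641399) with a fold of 3.72 from 15 fragments. Its background of 3.43 fragments was low for that list, at percentile 5.46, and by pileup the stronger Ogt region stood at percentile 63.4. Nagk, the kinase of salvaged N-acetylglucosamine, had a region on its start (chr6:83794777-83795188) with a fold of 3.67 from 39 fragments. By pileup Nagk stood above Ogt, at percentile 85.1, so the order of these genes differs between fold and fragments.

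Towards sialic acid, Gne had 2 weak regions in replicate 3 and Renbp had none. Both Gne regions (chr4:44071763-44072037 and chr4:44072679-44073003) lay at the inner of its 2 RefSeq starts, at 44072717, with folds of 3.06 and 2.80 from 14 and 19 fragments. The outer start, at 44084177, had no region, and the summits were 12325 and 11380 bp from it. Renbp, an epimerase of N-acetylglucosamine, had no region within its body. The nearest in replicate 3 lay 6865 bp away in an intron of Arhgap4 (chrX:73914781-73915256, fold 5.66).

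**Figure D4:**
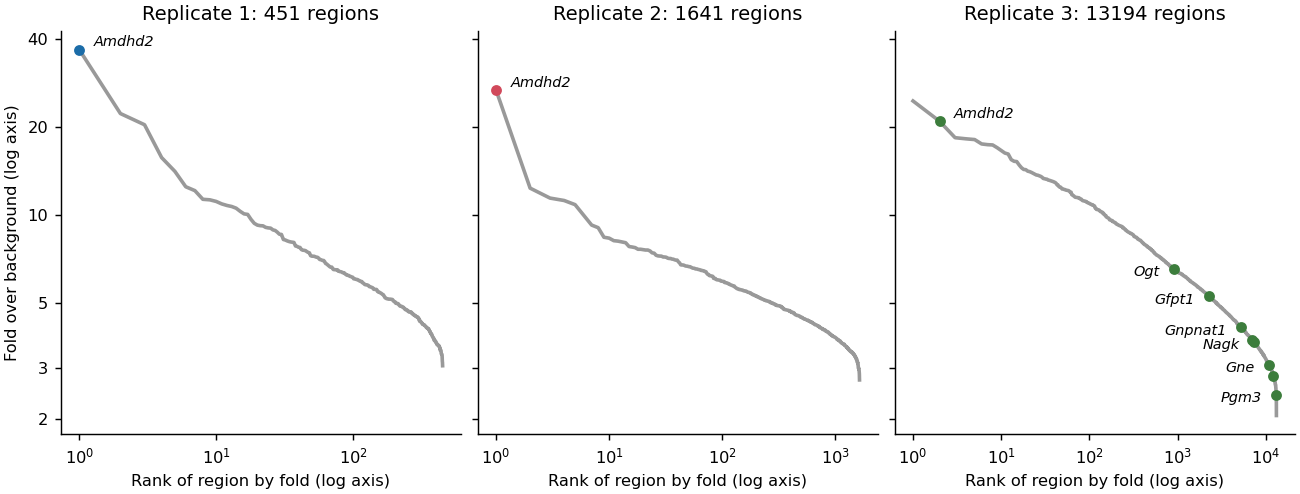
Fold over background against rank by fold, both on log axes, for all regions of each replicate (grey line), with the regions of the 10 genes as points. Amdhd2 is at rank 1, 1 and 2, and the other 6 genes with a region appear in replicate 3 alone, with folds between 2.42 and 6.55.

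Around these enzymes, 41 further genes of amino sugar metabolism were followed. Of them, 4 had a region in replicate 1 (9.76%), 3 in replicate 2 (7.32%) and 18 in replicate 3 (43.9%), against 1.51%, 5.17% and 31.5% of all coding genes. In at least 2 replicates there were 6 of the 41, against 5.43% of all coding genes. Hexa alone was in all 3, against 0.836% of all coding genes. By the strongest region of each gene, their median fold in replicate 3 was 4.54, against 4.04 over coding genes with a region, and 9.74 was the highest. The lists that follow are small, and their counts stand beside the same shares of coding genes.

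The lysosomal list, which joins enzymes that free amino sugars with those that tag lysosomal enzymes with mannose phosphate, had a region at 3, 1 and 8 of 13 genes in replicates 1, 2 and 3 (23.1%, 7.69% and 61.5%, against 1.51%, 5.17% and 31.5% of coding genes). Hexa, the alpha subunit of beta-hexosaminidase, had folds of 11.3, 6.16 and 9.74 from 45, 28 and 96 fragments, with summits within 58 bp of each other. These summits lay 153, 95 and 139 bp after the Hexa start, and nearer, at 19, 39 and 5 bp, to a RefSeq start or end of Tmem202. Nagpa, which uncovers the mannose phosphate tag, had folds of 5.14 in replicate 1 and 4.72 in replicate 3, with summits 37 bp apart. Its window held 2 E-boxes, and its summits were 6 and 11 bp from the nearer one. Of the 27 further genes with a RefSeq window, 5 had an E-box, against 7.15% of all windows. Of these, Nagpa and Naglu had a region in replicate 3, and the others had none in any replicate. Over coding genes, 47.5% of those with 1 E-box and 63.8% of those with 2 had a region in replicate 3. Nothing is read from so few genes. Naglu, which cleaves N-acetylglucosamine from heparan sulfate, had a fold of 5.27 in replicate 3, with its summit 24 bp from the E-box. Hexa had 1 RUNX core and no E-box in its window, and it was in all 3 lists. That core lay 383, 325 and 369 bp from the summits of replicates 1, 2 and 3, outside the regions of replicates 1 and 2. The summits lay past the end of the window, so the search did not reach them.

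No gene of the other lists had a region in all 3 replicates. Of 8 genes at the entry and salvage of hexosamines, 1, 1 and 3 had a region in replicates 1, 2 and 3 (12.5%, 12.5% and 37.5%, against 1.51%, 5.17% and 31.5% of coding genes). Gnpda1, the deaminase that returns glucosamine phosphate to glycolysis, had folds of 4.06 in replicate 1 and 5.37 in replicate 3, with summits 13 bp apart. Of 10 genes that transfer or remove N-acetylglucosamine, 0, 1 and 5 had a region (0%, 10% and 50%, against the same shares). The median fold of the 5 in replicate 3 was 5.21, above the 4.57 of the 8 lysosomal genes. Alg14 and Dpagt1, which act at the first steps of the N-glycan precursor, were the highest, with folds of 6.37 and 5.74 in replicate 3 alone. Mgat1, which starts the branching of complex N-glycans, had 3.52 in replicate 2 and 4.31 in replicate 3, and Oga, the enzyme that removes O-GlcNAc, had 5.21 in replicate 3. Of 10 sialic acid genes, 0, 0 and 2 had a region (0%, 0% and 20%, against the same shares), the higher at Slc35a1, the transporter of activated sialic acid, with a fold of 4.52.

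**Figure D5:**
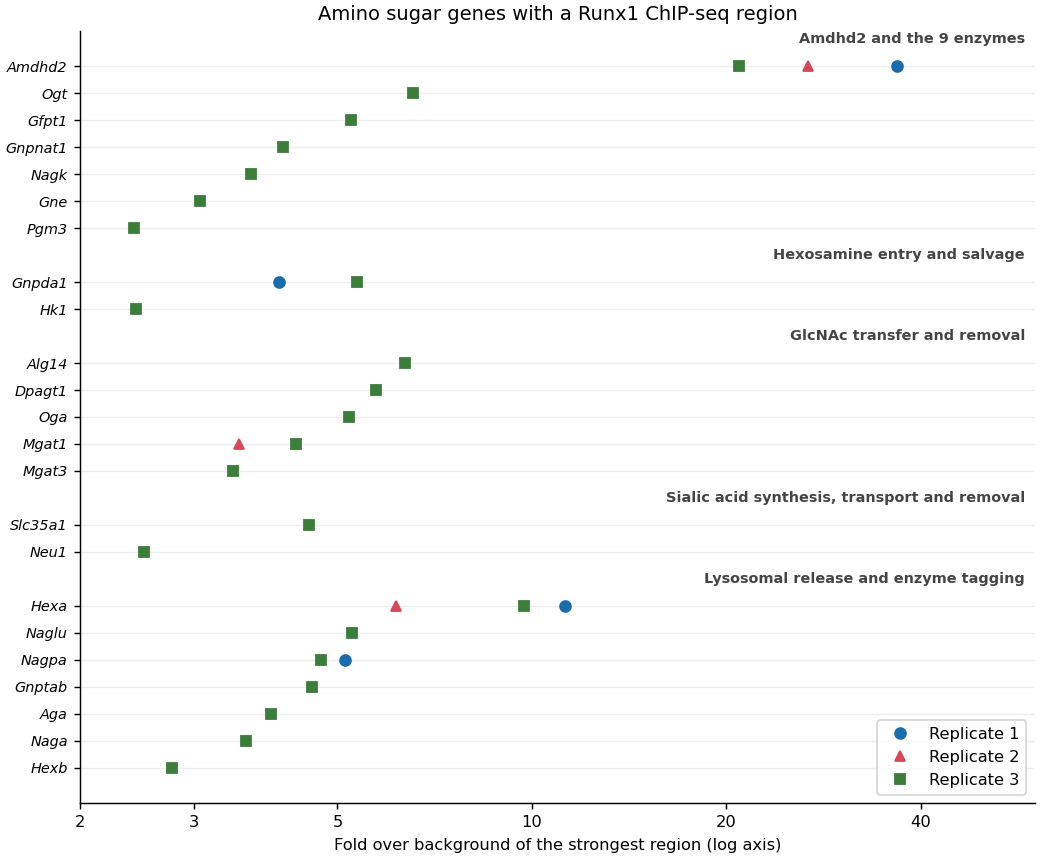
Fold of the strongest region, on a log axis, for the amino sugar genes reported here that had a region, grouped by role, with 1 symbol per replicate. Amdhd2 lies at 20.9 or more in all 3 replicates, and the next highest value, of Hexa in replicate 1, is 11.3.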

How the data were processed

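Runx1 ChIP-seq regions were deposited for 3 replicates of mouse spinal cord. Regions were listed per replicate, per the deposited files, and the genome was GRCm38. Per the submitters' processing notes, MACS2 2.1.2, Bowtie2 and Trimmomatic 0.38 were used, along with Picard 2.18.26, SAMtools 1.9 and FastQC. Their settings and the control library are not given in the sources used. The columns the authors deposited for each summit are −log10 p, −log10 q, the fold over background, which is a ratio, and a score. The score is the deposited −log10 q on another scale and was not used. Starts count from 0 there and from 1 here.

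A region took the fold of its strongest summit. Pileup and background were solved from p and the fold defined above under a Poisson model, within 0.001 in −log10 p for 100% of summits. The solver recovered 100% of 2000 simulated pileups. Depth was otherwise unknown, and intervals cover counting error only, since duplicate fragments are not independent.

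Gene symbols, older ones included, were matched to RefSeq (GRCm38.p6), which found 99.7%, 99.8% and 99.5% of the coding symbols of replicates 1, 2 and 3. The genes, lists and motifs were chosen with earlier results of these data known, and no test was made. Genes named were the 10 enzymes, genes of the other lists with regions in at least 2 replicates (or else the strongest), the 5 nearest to Amdhd2 in log2 fold, and neighbours. Some genes that the rule names are counted but not reported here. Oga, Naglu, Alg14, Dpagt1, Cdk4 and Rragb were added after their values were seen. Alternatives were a fold of 5, a q of 1e-05, RefSeq assignment, other overlap rules, other ranks and leaving out each replicate. The software was Python 3.11.15 with scipy 1.17.1, pandas 2.3.3, matplotlib 3.10.9 and numpy 2.4.6.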

Additional observations from a re-analysis of the deposited data

How the results depend on the processing

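No paired analysis was possible because the 3 replicates form 1 group. Of 54 alternative values, 44 were within 1.5 times the reported count or within the spread or interval of the reported value. With a fold of 5 or more, enzymes with a region in replicate 3 went from 7 to 3. Further pathway genes went from 3 to 1 in replicate 2 and from 18 to 6 in replicate 3. The share of all coding genes in replicate 3 went from 31.5% to 8.49% under the same rule. With a q of 1e-05 or less, the further pathway genes in replicate 2 also went to 1. By 1 kb around a RefSeq start they went from 4 to 2 in replicate 1 and from 18 to 11 in replicate 3, where only 27 of 41 had a window. Of all coding genes with a window, 31.7% had a region by that rule in replicate 3. Shares of all coding genes under these rules were not computed for replicates 1 and 2. In each replicate Amdhd2 had a region under all of these rules. Over the lowest background, a setting added later, its fold in replicate 3 was 74.4. Its percentile there, 99.99 by fold, was 100 by −log10 q, 100 by pileup (added later) and 99.99 among promoter regions. Leaving out each replicate gave a mean fold of 23.8 to 31.8 and left 1 enzyme, Amdhd2, with a region in both remaining replicates. A single group with no second library kind limits all values to descriptions.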

Other observations

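Of the 21 coding genes with 3 or more E-boxes in a promoter window, 9 (42.9%) had a region in all 3 replicates. The share was 0.836% over all coding genes and 0.577% over those with a window and no E-box. The 9 were Amdhd2, Lamp1, Mfsd1, Zmym6, Cdk4, Napa, Osgep, Ube2b and 4933434E20Rik. Amdhd2 was chosen for being found in all 3. Cdk4, the cyclin-dependent kinase of cell cycle entry, had folds of 7.11, 6.00 and 12.1, and Rragb, a GTPase that recruits mTORC1 to lysosomes, had 8.04 and 7.75 in replicates 1 and 3. In 6 of the 21 genes no region was assigned in any replicate (Apex1, Fam178b, Nxf2, Slc51a, Sohlh1 and Ubap2l). These genes were chosen after their windows were seen, and a region is assigned to 1 gene. Apex1 is the neighbour of Osgep, which had the region.

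The RUNX core was less frequent in the windows of genes with a region than in all windows, and the E-box more frequent. The RUNX core was in 16.8% of all 32851 windows, and in 11.1%, 11.7% and 12.0% of the windows of genes with a region in replicates 1, 2 and 3. The E-box was in 7.15% of all and in 30.8%, 14.4% and 10.9% of these. GC boxes were in 35.7% of all and in 59.4%, 57.2% and 59.6%. The median GC content was 52.7% over all windows and 63.3%, 60.3% and 60.7% over these, and its part in the shares was not tested. The windows cover 300 bases at a start and not the regions themselves, so a region with its RUNX core outside the window is not counted.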
